A study of Homo sapiens with 5 samples.

Results

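RN7SK, the gene of the 7SK small nuclear RNA, and 8 of its pseudogene copies were followed through CLIP-Seq region lists of HEK-293 cells. The members were all regions whose host gene on the same strand was RN7SK, RN7SKP203, RN7SKP71, RN7SKP90, RN7SKP79, RN7SKP9, RN7SKP230, RN7SKP180 or RN7SKP255. These 9 names, of 1395 in the lists, had 22 of the 3147 regions. HEK-293 is a human embryonic kidney line, and region lists of bound RNA give no check of that identity by marker genes. Cells were transfected with GFP-(GR)50 (GFP fused to 50 glycine-arginine repeats), with GFP-(GP)10 (10 glycine-proline repeats) or with GFP alone, or were left untransfected. GFP-(GR)50 replicate 1 and GFP made up experiment 1, where RNase I trimmed the RNA at 0.04 units/ml. Untransfected cells, GFP-(GP)10 and GFP-(GR)50 replicate 2 made up experiment 2, with 0.02 units/ml. All 5 libraries shared crosslinking at 100 mJ/cm2 and 254 nm, a pull-down of 1.5 hours on beads against GFP, and RNA cut from the membrane at the size expected of the GFP-(GR)50 complexes, in the controls too. The GFP proteins were brought in by transfection and came on top of what the cells make themselves, and the GP fusion has fewer repeats than the GR fusion. The experiments are described as independent, and the GFP-(GR)50 replicates differ in the amount of RNase I as well.

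7SK is an abundant noncoding RNA of the nucleus, made by RNA polymerase III. Together with HEXIM proteins it holds the elongation factor P-TEFb, the kinase CDK9 with cyclin T, in an inactive form. MEPCE caps its 5′ end and LARP7 binds its 3′ end. HEXIM proteins dock on the hairpin at its 5′ end. The genome carries many copies named RN7SKP, which are annotated as pseudogenes, and a read that matches several copies cannot be placed on 1 of them with certainty. The lists hold uniquely mapping reads, and listed reads that add multimapping reads scaled by the authors, so the split of reads between RN7SK and its copies is uncertain.

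The libraries differed in what surrounds 7SK. Listed reads outside ribosomal RNA (rRNA) numbered 1634 of 56588 with GFP-(GR)50 replicate 1 and 11025 of 30598 with GFP. They numbered 32734 of 134222 for GFP-(GR)50 replicate 2, 12750 of 22519 for the untransfected library and 3170 of 7468 for GFP-(GP)10. Of the 32734 reads, all but 6995 lay in contig regions without annotation that match an rRNA region in width and reads. Every share of 7SK therefore depends on which reads it is divided by, and shares are given below on more than 1 base. No region has fewer than 5 reads, so a copy that is not listed need not be a copy with 0 reads. Each control is 1 library and the members were chosen on these values, so the comparisons are descriptions with exact intervals of counting error at 95% and no p-value. Scaled multimapping reads are not independent reads, which makes the intervals of listed reads too narrow.

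RN7SK was listed in all 5 libraries, and GFP-(GR)50 replicate 2 had by far the most reads there. It held 28.4 listed reads with GFP and 36.4 with GFP-(GR)50 replicate 1. In experiment 2 it held 15.3 for the untransfected library, 10.9 for GFP-(GP)10 and 163 for GFP-(GR)50 replicate 2. Among names outside rRNA, RN7SK ranked 2 of 62 by listed reads with GFP-(GR)50 replicate 1 and 2 of 487 for GFP-(GR)50 replicate 2. Its rank was 78 of 234 with GFP, 60 of 717 for the untransfected library and 25 of 177 for GFP-(GP)10. The gene thus stood near the top of both GFP-(GR)50 lists and lower in each control.

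Uniquely mapping reads, those placed at a single site, were few on RN7SK outside GFP-(GR)50 replicate 2. RN7SK had 8 of them with GFP, 5 with GFP-(GR)50 replicate 1, 7 for the untransfected library, 5 for GFP-(GP)10 and 58 for GFP-(GR)50 replicate 2. They made up 28.2% (13.2 to 48.7) of the gene's listed reads with GFP, 13.7% (4.67 to 29.5) with GFP-(GR)50 replicate 1, 45.8% (21.3 to 73.4) for the untransfected library, 45.9% (16.7 to 76.6) for GFP-(GP)10 and 35.5% (28.3 to 43.4) for GFP-(GR)50 replicate 2. The lowest value belongs to GFP-(GR)50 replicate 1, and its interval overlaps those of the controls.

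**Figure D1:**
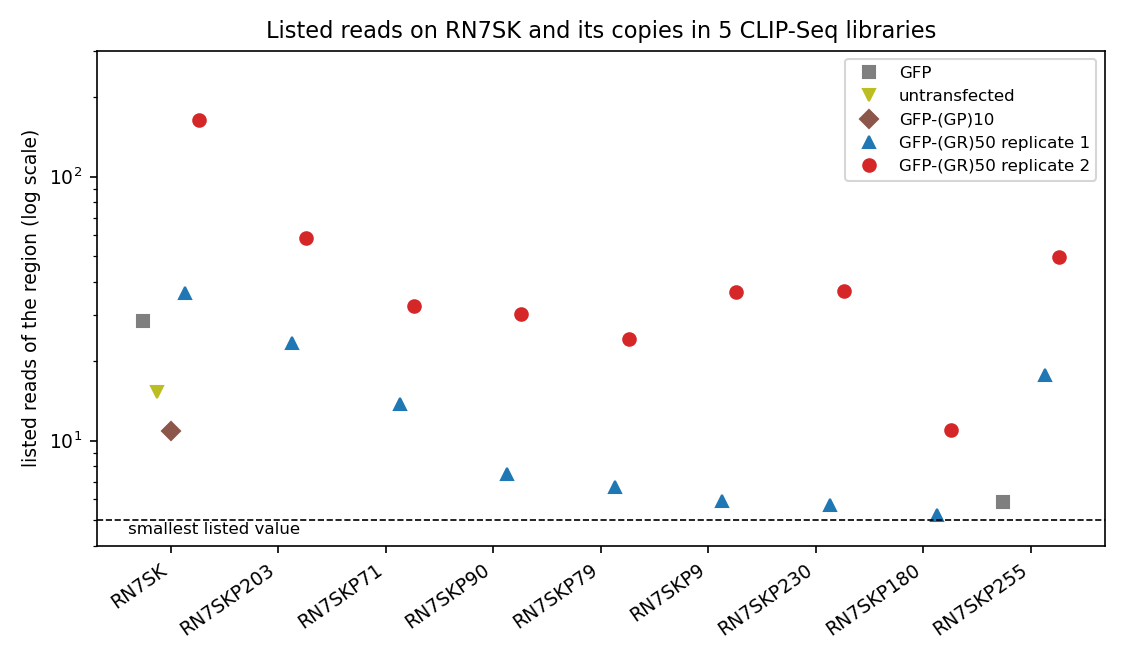
Listed reads (log scale) on RN7SK and 8 copies in the 5 libraries; each point is 1 region of 1 library, a missing point means no listed region, and the dashed line is the smallest listed value, 5 reads. Only RN7SK has points in all libraries, and the highest point of every gene is GFP-(GR)50 replicate 2.

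The 8 copies were listed in both GFP-(GR)50 libraries and, apart from RN7SKP255 with GFP, in no control. The members were chosen with such values known, so this count is a description. In GFP-(GR)50 replicate 1 the copies held between 5.25 and 23.4 reads, with a median of 7.09, and in replicate 2 between 11.0 and 58.6, with a median of 34.5. RN7SKP203 led them, with 23.4 reads in replicate 1 and 58.6 in replicate 2. RN7SKP255 followed, with 17.7 and 49.5 reads, against 5.85 with GFP. RN7SKP71 had 13.8 and 32.4 reads.

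The 5 other copies lay near the minimum in replicate 1. RN7SKP90 had 7.5 and 30.2 reads in replicates 1 and 2, and RN7SKP79 had 6.69 and 24.3. RN7SKP9 had 5.92 and 36.6 reads, and RN7SKP230 had 5.72 and 36.8. RN7SKP180 had the fewest, 5.25 and 11.0. Every copy had more reads in replicate 2 than in replicate 1, by 2.09 to 6.44 times, with a median of 3.21, beside 4.48 times for RN7SK. These ratios are not scaled for depth, and replicate 2 had 134222 listed reads against 56588 in replicate 1. As a share of listed reads outside rRNA the copies went from 5.27% in replicate 1 to 0.853% in replicate 2. Of all listed reads they held 0.152% and 0.208%. Few of the copies' reads were unique. Of the 9 member regions, 4 had no uniquely mapping read in replicate 1 (RN7SKP71, RN7SKP9, RN7SKP230 and RN7SKP255), and none was without one in replicate 2, where the copies held 2 to 10 each.

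How the listed 7SK reads divide between gene and copies depends on the minimum for listing, and the copies entered through the GFP-(GR)50 lists. RN7SK itself held 29.7% of the member reads with GFP-(GR)50 replicate 1 and 36.9% in replicate 2, against 82.9% with GFP and 100% for the untransfected library and GFP-(GP)10. The member list leaves out copies that GFP did list. Of the reads of every listed 7SK region, member or not, RN7SK held 26.8% with GFP-(GR)50 replicate 1, 25.4% in replicate 2 and 63.6% with GFP. GFP and GFP-(GR)50 replicate 1 had similar numbers of reads on RN7SK, 28.4 and 36.4, but 5.85 and 86.0 on the member copies. Copies outside the members held 10.4 reads with GFP and 13.2 with GFP-(GR)50 replicate 1. No listed region has fewer than 5 reads, so each of the 7 member copies missing with GFP, and of the 8 missing in each control of experiment 2, may still hold reads. If reads divided between RN7SK and the copies as in replicate 2, the highest copy, RN7SKP203, would have 5.49 reads for the untransfected library and 3.91 for GFP-(GP)10. At that division 1 of 8 copies would reach 5 reads in the former and 0 of 8 in the latter, so the 100% in these controls does not separate them from replicate 2. At the division of replicate 1, RN7SKP203 would have 18.3 reads with GFP, and 5 of 8 copies would reach 5 reads there, where 1 of these 8 was listed. These 8 copies entered through the GFP-(GR)50 lists, which favours such a shortfall, so nothing on the division is read from it. GFP also listed 2 copies outside the members, RN7SKP176 and RN7SKP80. A region of 5 reads would be 0.0454% of the reads outside rRNA with GFP, 0.0392% for the untransfected library and 0.158% for GFP-(GP)10.

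Summed over the 9 members with unlisted copies counted as 0, the share of listed reads outside rRNA was higher in each GFP-(GR)50 library than in its controls. The copies were chosen from the GFP-(GR)50 lists, so these sums are a description that the choice of members favours. In experiment 1 they held 7.49% (6.24 to 8.85) with GFP-(GR)50 replicate 1 and 0.311% (0.214 to 0.431) with GFP, a ratio of 24.1 (16.4 to 36.5). In experiment 2 they held 1.35% (1.23 to 1.48) for GFP-(GR)50 replicate 2, 0.120% (0.0659 to 0.194) for the untransfected library and 0.344% (0.173 to 0.620) for GFP-(GP)10. The ratios were 11.3 (6.90 to 20.7) against the untransfected library and 3.93 (2.16 to 7.87) against GFP-(GP)10. As an alternative, 5 reads, the minimum of a listed region, were given to each unlisted copy. The control shares would then be 0.628% with GFP, 0.434% for the untransfected library and 1.61% for GFP-(GP)10. The ratios would be 11.9, 3.12 and 0.842, so against GFP-(GP)10 the direction of the summed share is not settled. These values are not bounds, since the filters for listing are not given. RN7SK, the only member listed on both sides of all 3 comparisons, had ratios of 8.65 (5.15 to 14.8) against GFP, 4.16 (2.49 to 7.74) against the untransfected library and 1.45 (0.781 to 2.93) against GFP-(GP)10. The last interval includes equal shares. Averaged over both GFP-(GR)50 libraries the share was 4.42% ± 4.34 (SD, n = 2), so their spread was about as large as the mean.

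The base of the share changed the size of these ratios. With the matching contig regions left out as well, the members held 12.98% with GFP-(GR)50 replicate 1 against 0.311% with GFP, and 6.33% in replicate 2 against 0.148% for the untransfected library and 0.549% for GFP-(GP)10. The ratios were then 41.7, 42.6 and 11.5, with a GFP-(GR)50 mean of 9.66% ± 4.70 (SD, n = 2). Over all listed reads, rRNA included, the ratios were 1.93, 4.85 and 2.26. For RN7SK alone over all listed reads the direction turned in 2 of the comparisons. RN7SK held 0.0644% of all listed reads with GFP-(GR)50 replicate 1 against 0.0929% with GFP, a ratio of 0.693 (0.413 to 1.18). It held 0.122% in replicate 2 against 0.146% for GFP-(GP)10, a ratio of 0.834 (0.449 to 1.68), and 0.0679% for the untransfected library, a ratio of 1.79 (1.07 to 3.33).

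**Figure D2:**
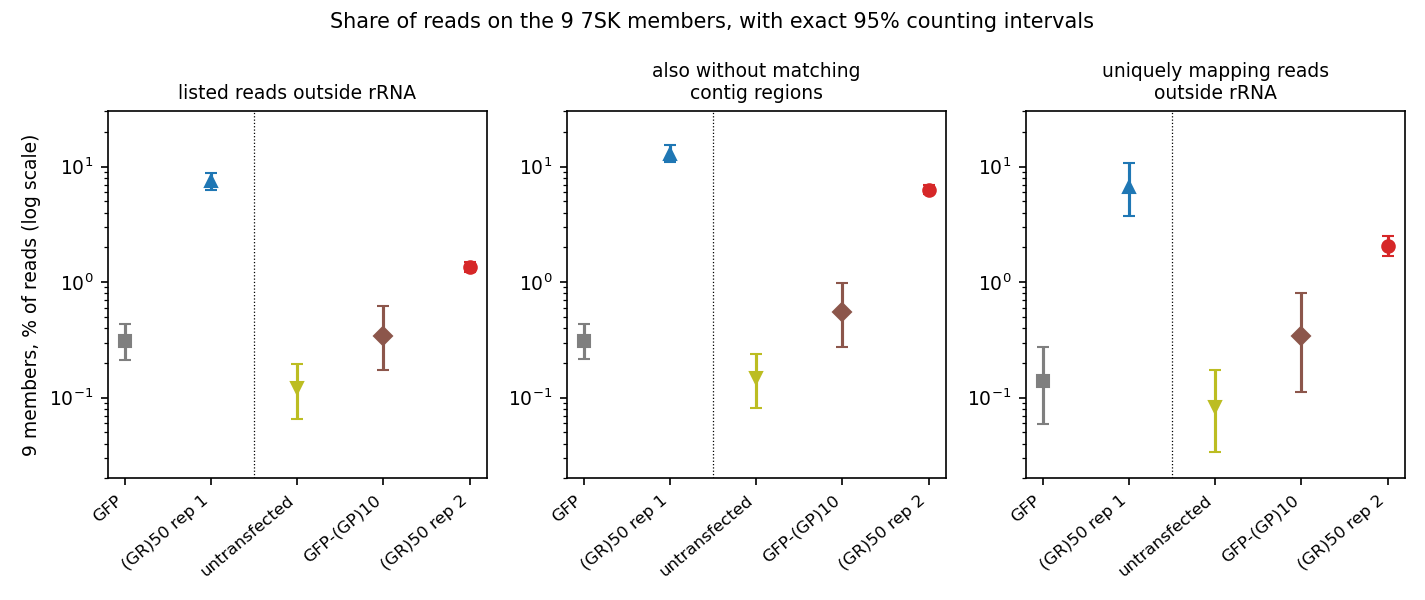
Share of reads (percent, log scale) on the 9 7SK members in each library among listed reads outside rRNA (left), listed reads without matching contig regions as well (middle) and uniquely mapping reads outside rRNA (right); points are single libraries, bars are exact 95% counting intervals, and the dotted line separates experiment 1 from experiment 2. Unlisted copies count as 0 reads here, and each GFP-(GR)50 point lies above the control points of its own experiment in all 3 panels.

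On uniquely mapping reads outside rRNA, RN7SK took 2.21% (0.722 to 5.09) with GFP-(GR)50 replicate 1, 5 of 226 reads, and 0.138% (0.0596 to 0.272) with GFP, 8 of 5797. In experiment 2 it took 1.21% (0.918 to 1.56) for GFP-(GR)50 replicate 2, 0.0837% (0.0337 to 0.172) for the untransfected library and 0.345% (0.112 to 0.802) for GFP-(GP)10. The ratios were 16.0 (4.13 to 55.6) in experiment 1, and 14.4 (6.58 to 37.5) and 3.51 (1.42 to 11.2) in experiment 2. Over all uniquely mapping reads, rRNA included, they were 2.43 (0.625 to 8.42), 7.73 (3.52 to 20.1) and 1.91 (0.774 to 6.11). The first and last of these intervals include equal shares.

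Set beside other names, RN7SK lay high in each comparison, also where its own ratio was small. Of the 29 names outside rRNA listed in both GFP and GFP-(GR)50 replicate 1, 65.5% had a share at least 2-fold higher in GFP-(GR)50, RN7SK (8.65 times) and RN7SKP255 (20.4 times) among them. RN7SKP255 ranked 1 and RN7SK 4 of these 29 by ratio, and the median ratio was 2.81. Against the untransfected library 2.63% of 114 names were past 2-fold, and RN7SK ranked 1 with 4.16 times, beside a median of 0.287. Against GFP-(GP)10 0.0% of 64 names were past 2-fold, RN7SK included, which ranked 3 with 1.45 times (0.781 to 2.93) beside a median of 0.151. With the matching contig regions left out as well, the names past 2-fold made up 79.3% against GFP, 21.9% against the untransfected library and 4.69% against GFP-(GP)10. RN7SK was among them in each, with 14.96, 15.7 and 4.25 times. Over all listed reads 0.0% of the names passed 2-fold in each comparison. The names are not independent of each other. RNU1-1, RNU1-2, RNU1-3, RNU1-4, U1 and further U1 names were listed in all 5 libraries, so each background counts them separately. RNU1-1 to RNU1-4 held 29.0 to 29.1 listed reads each with GFP, and all were past 2-fold in GFP-(GR)50 replicate 1. The percentages, medians and ranks thus count 1 RNA several times. These contrasts were used in choosing the members, so the ranks are given as a description. The 7 copies without a region in GFP are read beside a background in which 53.2% of the names of GFP-(GR)50 replicate 1 had none with GFP. For replicate 2, 76.6% of names had none for the untransfected library and 86.9% none for GFP-(GP)10. Of the 62 names of replicate 1 outside rRNA, 64.5% were also listed in replicate 2.

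Position along RN7SK was not used to choose the members. The gene is 332 bases long in RefSeq and lies on the plus strand of chromosome 6, where the listed region of GFP-(GR)50 replicate 2 ran from 52995617 to 52995952 (hg38, coordinates as deposited). In each library a single region covered most of the gene. It covered 331 bases with GFP and with GFP-(GR)50 replicate 1, 332 for GFP-(GR)50 replicate 2, 320 for GFP-(GP)10 and 280 for the untransfected library. The region of the untransfected library began 49 bases into the gene and so left out the bases before that at the 5′ end. The region of GFP-(GP)10 ended 12 bases before the 3′ end, the part that LARP7 binds. In the other 3 libraries both ends lay within 3 bases of the ends of the gene. The short regions belong to the libraries with the fewest reads on RN7SK, and the part of depth in this was not tested. Even the shortest region spanned 84.3% of the gene.

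**Figure D3:**
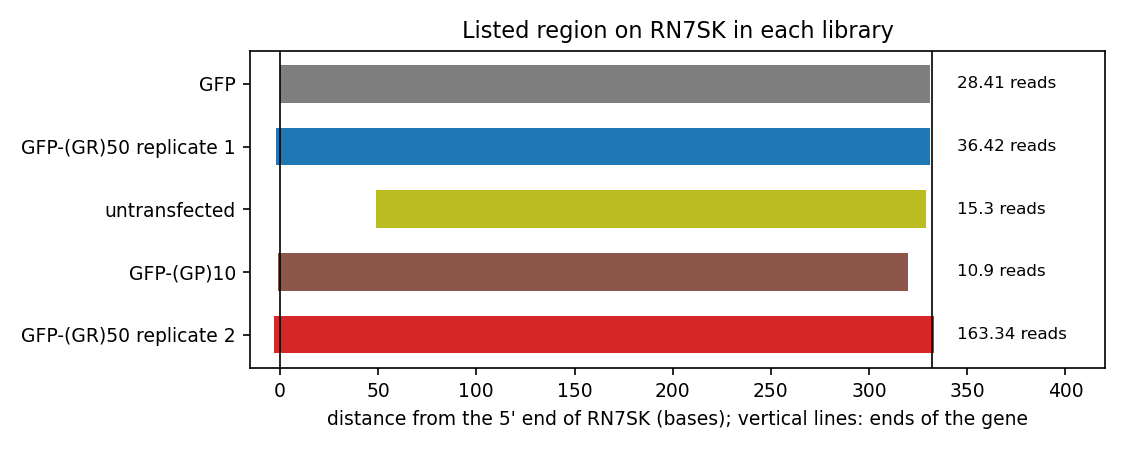
The listed region on RN7SK in each library, as distance in bases from the 5′ end of the gene, with its listed reads at the right; vertical lines mark the ends of the 332-base gene. Regions of 4 libraries start within 3 bases of the 5′ end, and that of the untransfected library starts at 49.

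The copies differ in length and place, but each was listed over much the same stretch in both GFP-(GR)50 libraries. RefSeq gives them lengths of 233 to 299 bases, shorter than RN7SK. In all 9 members the region of replicate 1 lay inside that of replicate 2. For the 8 copies the regions shared 73.5% to 95.3% of their joint length, with a median of 92.3%. Their 5′ edges differed by 0 to 7 bases and their 3′ edges by 4 to 45. The largest shifts were at RN7SKP180 (45 bases) and RN7SKP255 (41 bases), where replicate 2 ran farther towards the 3′ end.

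In most copies the region began near the 5′ end. It started within 25 bases of that end in 6 of 8 copies in replicate 1 and 7 of 8 in replicate 2. It ended within 25 bases of the 3′ end in 2 of 8 and 4 of 8. RN7SKP203 (minus strand of chromosome 2, 76445184 to 76445411 in replicate 2) was covered to 89.6% in replicate 1 and 94.2% in replicate 2. RN7SKP71 (plus strand of chromosome 12, 112267089 to 112267308) was covered to 86.6% and 92.1%. RN7SKP255 (plus strand of chromosome 14, 89712509 to 89712748) was covered to 82.1% and 99.2%, and to 90.4% with GFP. RN7SKP9, inside an intron of UBAC2 on the plus strand of chromosome 13 (99205706 to 99205945), was covered to 73.6% and 79.6%. These 4 regions run over most of their copy.

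A group of 3 copies carried a listed region on the 5′ part alone, and their regions stopped at nearly the same distance from the 5′ end. In replicate 1 the end lay 102 bases from the 5′ end of RN7SKP90 (plus strand of chromosome 11, 16842252 to 16842358 in replicate 2), 102 from that of RN7SKP79 (minus strand of chromosome 5, 6848356 to 6848463) and 103 from that of RN7SKP230 (minus strand of chromosome 5, 109699728 to 109699814). In replicate 2 the ends lay at 106, 107 and 107 bases. A shared end is not particular to these 3 copies. The regions of RN7SKP203, RN7SKP71 and RN7SKP9 each ended 220 bases from the 5′ end in replicate 1, and at 227, 232 and 238 in replicate 2. RN7SKP90, RN7SKP79 and RN7SKP230 held 0 to 1 uniquely mapping reads each in replicate 1 and 2 to 8 in replicate 2. Their ends may thus rest on shared reads and are not independent. The rest of these 3 copies, 126 to 137 bases, held no listed region in either library. RN7SKP180, in an intron of SLC39A11 on the minus strand of chromosome 17 (72663916 to 72664101), differed in that its region began 55 bases in for replicate 1 and 51 for replicate 2. Whether these stretches match the same part of RN7SK was not analysed here.

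**Figure D4:**
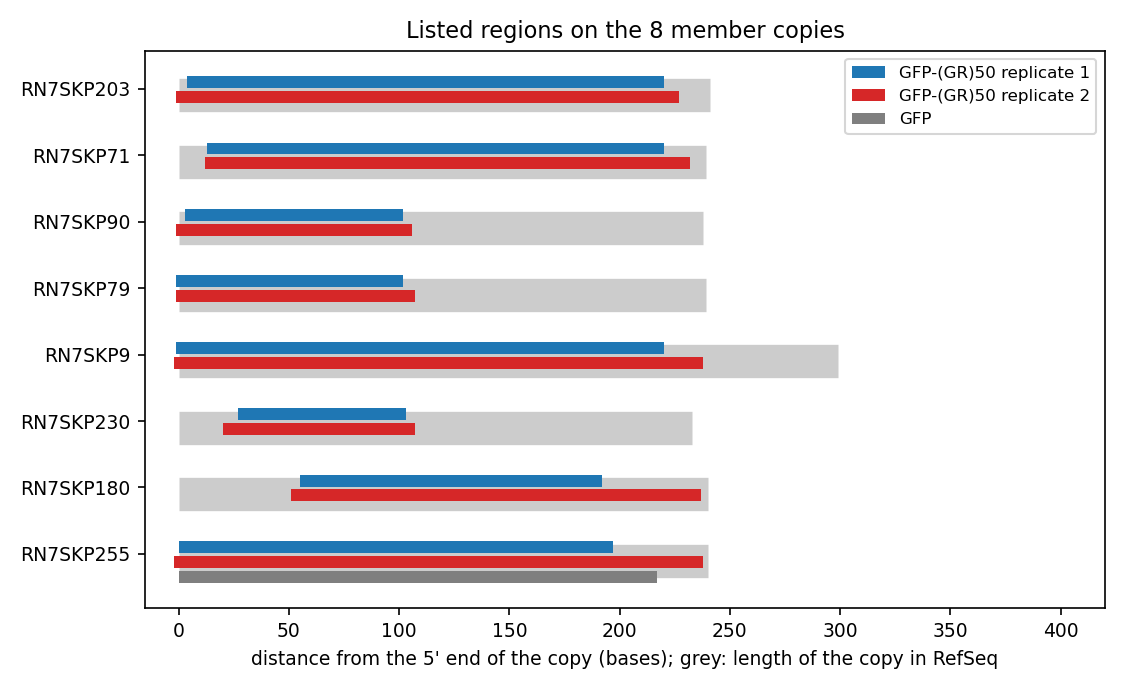
Listed regions on the 8 member copies, as distance in bases from the 5′ end of each copy; grey bands are the copies' RefSeq lengths, blue bars GFP-(GR)50 replicate 1, red bars replicate 2 and the dark grey bar GFP. On RN7SKP90, RN7SKP79 and RN7SKP230 both regions end 102 to 107 bases from the 5′ end.

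Per length of region, RN7SK had the highest value in GFP-(GR)50 replicate 2 and was level with RN7SKP203 in replicate 1. In GFP-(GR)50 replicate 2 RN7SK had 488 listed reads per kb of region, RN7SKP230 had 428, RN7SKP90 had 285 and RN7SKP203 had 258, and RN7SKP180 was lowest with 59.2. In replicate 1 RN7SK had 110 listed reads per kb, RN7SKP203 had 109 and RN7SKP255 had 90.3, and RN7SKP180 with 38.6 and RN7SKP9 with 26.9 were lowest. The controls had 86.1 reads per kb on RN7SK with GFP, 54.8 for the untransfected library and 34.1 for GFP-(GP)10. These densities are not scaled for depth, have no intervals, and rest on the uncertain split of multimapping reads between RN7SK and its copies.

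The copies lie in varied surroundings, 4 on each strand. RN7SKP9 and RN7SKP180 lie in introns of a protein-coding gene on their own strand. A further 5 lie opposite a named gene, among them HECTD4 (RN7SKP71), PLEKHA7 (RN7SKP90) and MAN2A1 (RN7SKP230). RN7SKP203 has neither.

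Ratios of reads within a library need no total. RN7SK held 1.52 times (0.794 to 2.79) the listed reads of SNORD3A, a U3 small nucleolar RNA that works in processing of the rRNA precursor, in the GFP library. The ratio was 6.82 (2.82 to 23.5) with GFP-(GR)50 replicate 1, 1.12 (0.482 to 2.40) for the untransfected library, 1.24 (0.460 to 3.34) for GFP-(GP)10 and 5.48 (3.66 to 8.31) for GFP-(GR)50 replicate 2. All reads of SNORD3A and nearly all of RNU1-1 are multimapping. The interval of GFP-(GR)50 replicate 2 lies above those of both its controls. That of replicate 1 begins just above the upper bound with GFP, but SNORD3A had only 5.34 listed reads in replicate 1, close to the minimum of 5. With reads rounded to whole numbers and intervals too narrow for multimapping reads, replicate 1 and GFP are not separated here. Against RNU1-1, a gene of the U1 splicing RNA, RN7SK held 0.975 (0.554 to 1.68) times the reads with GFP, 2.56 (1.35 to 5.16) with GFP-(GR)50 replicate 1, 0.485 (0.236 to 0.891) for the untransfected library, 1.98 (0.621 to 6.04) for GFP-(GP)10 and 9.17 (5.55 to 15.7) for GFP-(GR)50 replicate 2. Here the intervals of replicate 1 and GFP overlap, as do those of replicate 2 and GFP-(GP)10.

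RMRP, the RNA of RNase MRP and another polymerase III transcript, was chosen after its values were seen because most of its reads map uniquely. It was listed with GFP and both GFP-(GR)50 libraries. RN7SK held 0.571 (0.208 to 1.46) uniquely mapping reads for each one of RMRP with GFP, 0.625 (0.161 to 2.17) with GFP-(GR)50 replicate 1 and 1.87 (1.19 to 2.99) for GFP-(GR)50 replicate 2. On listed reads the ratios to RMRP were 1.67 (0.871 to 3.21), 4.55 (2.06 to 11.2) and 5.19 (3.47 to 7.69) in the same order. GFP and GFP-(GR)50 replicate 1 thus lay close together on uniquely mapping reads and farther apart on listed reads, and their intervals overlap on both.

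**Figure D5:**
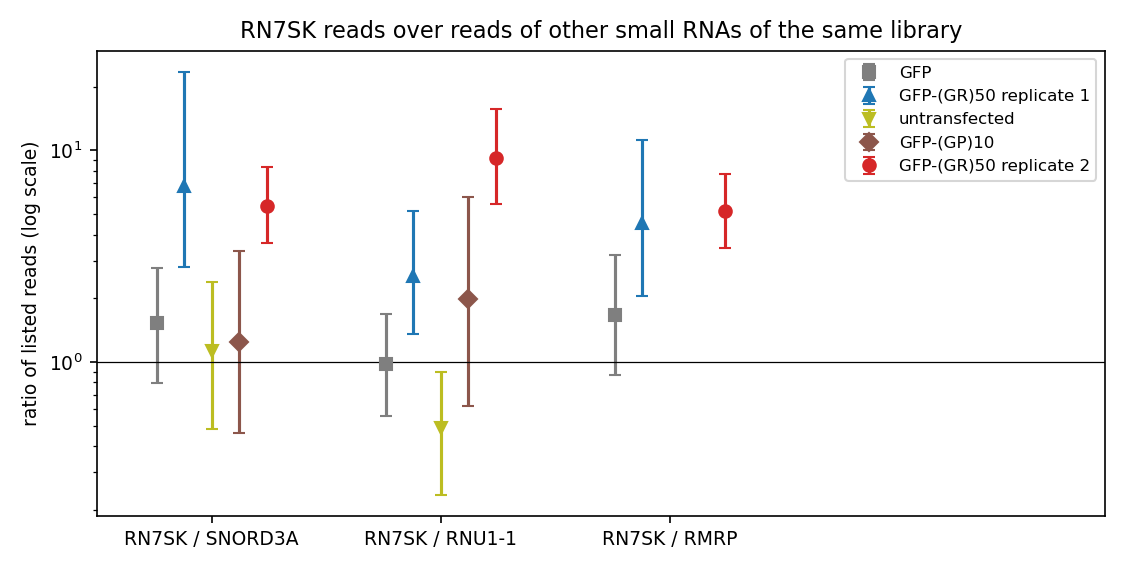
Listed reads of RN7SK divided by those of SNORD3A, RNU1-1 and RMRP in the same library (log scale); points are single libraries and bars exact 95% counting intervals. Both GFP-(GR)50 libraries lie highest for each gene, and RMRP has no point where it has no listed region.

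The names most like RN7SK across the 5 libraries were SNORD3A, RNU1-1 and, at equal distance, CROCCP4 and RNU1-4, out of 13 listed in all of them. Likeness was the Euclidean distance between log2 shares of listed reads outside rRNA, each centred on its mean over the libraries. The distances were 2.50, 3.19 and 3.20, all large beside a perfect match at 0. CROCCP4 is a pseudogene whose listed region also carries the name of RNU1-4, a U1 gene, so these are 1 region under 2 names.

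Spliceosomal snRNA, the other large class of small nuclear RNA, is set here beside RN7SK alone, since the member copies were chosen on these values. RN7SK was also chosen on them, so the values are a description. The snRNA genes and copies held 9.14% of listed reads outside rRNA with GFP-(GR)50 replicate 1 against 4.76% with GFP, a ratio of 1.92 beside 8.65 for RN7SK. They held 0.878% for GFP-(GR)50 replicate 2 against 3.15% for the untransfected library and 1.24% for GFP-(GP)10, ratios of 0.279 (0.239 to 0.325) and 0.708 (0.511 to 1.03) beside 4.16 and 1.45. With the matching contig regions left out as well the ratios were 3.32 in experiment 1 and 1.05 and 2.08 in experiment 2, beside 14.96, 15.7 and 4.25 for RN7SK. On uniquely mapping reads outside rRNA the snRNA ratio was 5.68 (3.77 to 8.33) against GFP and 3.21 (2.35 to 4.42) against the untransfected library, beside 16.0 (4.13 to 55.6) and 14.4 (6.58 to 37.5) for RN7SK. GFP-(GP)10 had 0 uniquely mapping reads in this snRNA set, so no ratio was formed against it. On the same base RMRP and RPPH1 together had a ratio of 14.7 (5.33 to 37.4) against GFP, close to that of RN7SK. They held 56 uniquely mapping reads for GFP-(GR)50 replicate 2, 1.17% (0.882 to 1.51), beside 58 and 1.21% for RN7SK. RPPH1 was listed there alone. Neither control of experiment 2 listed them, so no ratio was formed there. On listed reads outside rRNA their ratio against GFP was 3.18 (1.19 to 7.76), beside 8.65. The differences between these classes were not tested. 7SL RNA was listed in GFP with 12.4 reads and for GFP-(GR)50 replicate 2 with 24.3, and Y RNA genes in the GFP library only, with 72.8. Vault RNA held 14 reads with GFP and 5 for GFP-(GR)50 replicate 2.

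Few genes of any kind were listed, and the genes of proteins that work with 7SK are read against that. Of 20056 protein-coding genes in RefSeq, the lists name 0.374% with GFP, 0.184% with GFP-(GR)50 replicate 1, 2.86% for the untransfected library, 0.563% for GFP-(GP)10 and 1.64% for GFP-(GR)50 replicate 2. None of 7 genes of the 7SK particle and P-TEFb (LARP7, MEPCE, HEXIM1, HEXIM2, CDK9, CCNT1 and CCNT2) was listed in any library. Of 6 genes of hnRNP and SR proteins that bind 7SK, HNRNPA2B1 was listed, in an intron, with 8 reads for the untransfected library and 5 for GFP-(GP)10. Of 11 pausing and elongation factors, NELFCD was listed, with 6.2 reads in an intron for the untransfected library. At these rates lists of this size hold few or no named genes, and nothing particular to them can be read from the counts.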

How the data were processed

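CLIP-Seq region lists of 5 libraries (single reads of 110 nt) were used as deposited. The submitters' processing notes name hg38 and GRCh38.p13 as builds, and as tools featureCounts 2.0.2, bedtools 2.30.0, UMI-tools 1.1.2 and Novoalign 4.03.03, with no role stated. For region calling, the tool and filters are likewise not given in the sources used here. Per the file headers, one column is the count of uniquely mapping reads. In GFP-(GR)50 replicate 2, 6 deposited values of it are not whole and were taken as an expected count. The other deposited column is an expected count (estimated count) that adds multimapping reads scaled by the authors, with the factor unknown. Neither is scaled for depth, and library totals were not used here.

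Regions annotated as rRNA by type, name or repeat were left out of the main base. Matching contig regions lay on contigs without annotation, spanned 100 bp or more, and differed from an rRNA region of that list by at most 5 bp of width and by at most 5% of its reads or 2 reads, a rule chosen after such regions had been seen. Intervals are exact (Clopper-Pearson for shares, conditional on the summed reads for ratios), on reads rounded to whole numbers. Those of ratios were tested on simulated independent whole counts. Intervals of shares and scaled multimapping reads were not simulated. All intervals cover counting error alone. Each GFP-(GR)50 library was set against the controls of its own experiment. All 9 members matched RefSeq (GRCh38.p14), used for lengths and distances, and all 22 regions overlapped their gene. Deposited starts may count from 0 or 1. The members and lists were chosen with earlier results of these data known. Named were the members, listed genes of the lists, and the 3 names most like RN7SK. Python 3.11.15, pandas 2.3.3 and SciPy 1.17.1 were used.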

Additional observations from a re-analysis of the deposited data

Results flagged for a closer look

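7SK reads were also found outside the 9 members. In GFP-(GR)50 replicate 2, regions of 15 other named copies held 180 listed reads, a signal in regions that the comparisons of the members do not use. Neither control of experiment 2 listed any of these copies. Of all names of replicate 2 outside rRNA, 76.6% were not listed for the untransfected library and 86.9% not for GFP-(GP)10. The absence of the copies is therefore no result about them. RN7SKP176, in an exon of PLCG2 on chromosome 16, led them with 44.96 reads in GFP-(GR)50 replicate 2, and it had 13.2 in replicate 1 and 5.17 in GFP. RN7SKP80 had 16.0 and 11.0 reads in 2 regions of GFP-(GR)50 replicate 2 and 5.27 in GFP. A further region of 85 bp on a contig, annotated as 7SK with no gene name, held 19.5 reads in GFP-(GR)50 replicate 2 and no uniquely mapping read. No control listed it. Its width and reads equal those of 1 of the named copies.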

How the results depend on the processing

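The ratio of the 9 members' shares counts unlisted copies as 0 in most alternatives, so their common direction is no sign of stability. It turned with RN7SK alone over all listed reads, chosen after seeing the data, which gave 0.693 against GFP, 1.79 against untransfected cells and 0.834 against GFP-(GP)10. Below, values are in the order GFP, untransfected, GFP-(GP)10. Setting unlisted members to 5 reads, also chosen after seeing the data, gave 11.9, 3.12 and 0.842. All listed reads as base gave 1.93, 4.85 and 2.26 from 24.1, 11.3 and 3.93. Leaving out matching contig regions gave 41.7, 42.6 and 11.5. Counting every 7SK copy gave 20.5, 16.3 and 5.71. RN7SK alone gave 8.65, 4.16 and 1.45, the last with an interval (0.781 to 2.93) that includes equal shares. Uniquely mapping reads gave 48.1, 24.6 and 5.98. A minimum of 10 reads gave 23.1, 5.89 and 2.38. The ratio of uniquely mapping reads at RN7SK moved to 2.43 against GFP with rRNA in the base. Names past 2-fold numbered 19, 3 and 0; they were 0, 0 and 0 over all listed reads and 23, 25 and 3 without matching regions, 2 bases that were chosen for this count after seeing the data. The GFP-(GR)50 mean share ran from 1.35% without replicate 1 to 7.49% without replicate 2, and was 9.66% without matching regions. The covered length of RN7SK did not change with a minimum of 10 reads or with all regions over the gene. The cause of these shifts was not tested. No paired analysis was possible because each control group is 1 library and shares fewer than 2 replicate numbers with GFP-(GR)50. Counts of 5 to 8 uniquely mapping reads limit every statement on RN7SK outside GFP-(GR)50 replicate 2.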
